A study of Mus musculus with 16 samples.

Results

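The 10 genes described here encode proteins of the cytotoxic granule other than the granzymes, proteins that bring the granule to the cell surface, and inhibitors that keep granule proteases in check inside the cell. They were chosen by name for these roles, with earlier results of these data known. All 10 were found among the 54456 gene rows of the table, and all 10 were among the 15675 genes that passed a filter on low counts. They were compared in T cells of OT-I mice, which carry a transgenic T cell receptor for an ovalbumin peptide shown by MHC class I, so that most of their T cells are CD8 cells. The cells of HFD VAT and of lean VAT were taken from visceral adipose tissue (VAT), and those of HFD LN and of lean LN from lymph nodes (LN). HFD mice ate a high-fat diet with 60% of its energy from fat for 8 weeks, and lean mice ate standard chow for the same time. Each of the 4 groups had 4 libraries, numbered as biological replicates, which makes 16 in all. One label calls the cells freshly isolated and another text has them kept in culture overnight before the sort, so the time outside the animal is uncertain. The labels give neither the number of animals behind a library nor their age, and the term Neg-OVA, which the columns of all 16 libraries carry, is not explained.

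Killer T cells store their lethal proteins in granules that are modified lysosomes. On contact with a target the granules travel to the contact site, dock, become primed and fuse with the membrane, and the granzymes released there cleave proteins of the target. The killer cell carries serpins in its cytosol, inhibitors that trap a protease that leaks out of a granule. In a CD8 cell that has not met its antigen much of this equipment is low, and it is built up as the cell becomes an effector.

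Among the granule genes, Nkg7, Srgn and the 3 serpins rose in VAT relative to LN when both diets were averaged, and 0 of the 10 fell. Nkg7 was 3.66-fold higher in VAT on HFD and 4.68-fold higher in lean mice, and Srgn was 2.55-fold higher under both diets, each past the test. Serpina3g had between 130 and 309 CPM in the VAT libraries and no count in 6 of the 8 LN libraries. Of the serpins, Serpinb6b passed on HFD (adjusted p = 0.0332) but not in lean mice (0.0522). Serpinb9 (adjusted p = 0.120 on HFD and 0.162 in lean mice) and Serpina3g (0.0890 and 0.151) passed on neither diet alone. Ctsw, Ctsc, Lamp1, Rab27a and Unc13d did not pass the test between tissues on either diet or in the average. None of the 10 genes passed the test between HFD and lean cells in either tissue. Levels are CPM, a count relative to the TMM-normalised size of its library, given as mean ± SD over libraries. Adjusted p-values come from edgeR's quasi-likelihood test on the counts of all 16 libraries, with Benjamini-Hochberg adjustment over the 15675 genes and a threshold of 0.05. CPM is not divided by gene length, so levels are compared between libraries for one gene and not between genes.

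**Figure D1:**
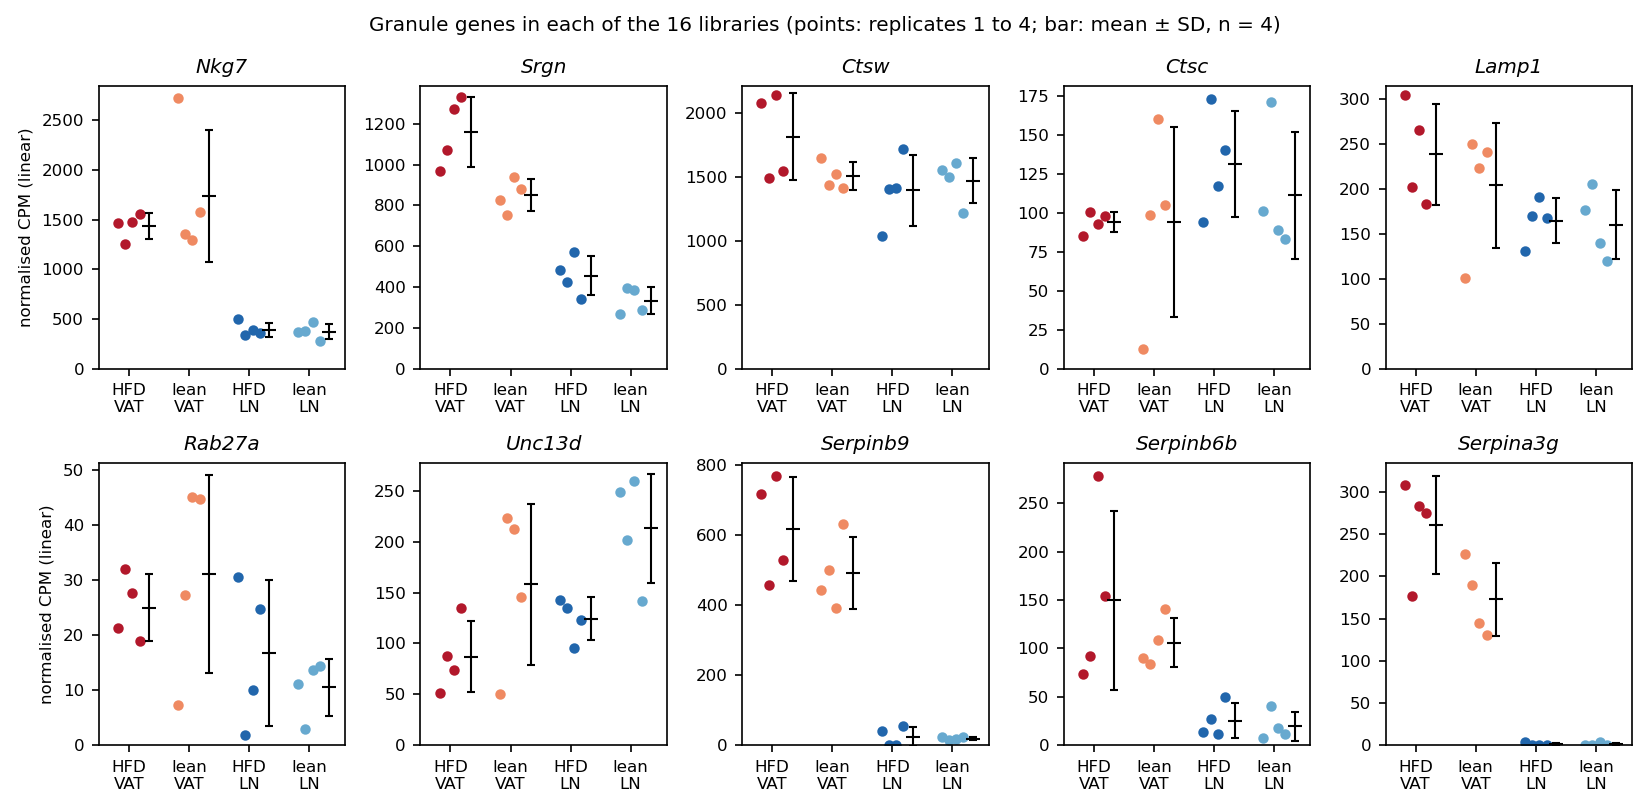
Normalised CPM (linear vertical axis, from 0) of the 10 granule genes in the 16 libraries, grouped as HFD VAT, lean VAT, HFD LN and lean LN. Points are replicates 1 to 4 from left to right and the bar beside them is the mean ± SD (n = 4). Nkg7, Srgn, Serpinb9, Serpinb6b and Serpina3g have every VAT library above every LN library, and lean VAT replicate 1 stands alone at 12.5 CPM for Ctsc.

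The libraries held 40212388 to 65957407 counts. T cell markers were present throughout, with 11 of 11 detected in each tissue and a summed level of 12085 to 16286 CPM in VAT and 11387 to 14509 CPM in LN. Single T cell markers differed in both directions. In HFD VAT and HFD LN, Cd8a averaged 2077 and 665 CPM, Cd8b1 1228 and 2072 CPM, and Cd5 14.3 and 133 CPM. In lean VAT and lean LN, Cd8a averaged 1840 and 718 CPM, Cd8b1 1368 and 2058 CPM, and Cd5 13.5 and 186 CPM. Markers of other cells were not equal between the tissues either. The 10 B cell markers summed to 85.7 to 360 CPM in VAT and 1537 to 2770 CPM in LN. The 8 NK cell markers summed to 104 to 349 CPM in VAT and 0.144 to 28.2 CPM in LN, and each of the 8 had a higher mean in VAT on both diets except Ncr1, which had no count in HFD VAT or in either LN group. Fcer1g led them, with a mean of 199 CPM in HFD VAT and 4.54 CPM in HFD LN, and 151 CPM in lean VAT and 11.5 CPM in lean LN. Klrb1c averaged 50.2 CPM in HFD VAT and 0.840 CPM in HFD LN, and 21.3 CPM in lean VAT and 0 in lean LN. The 12 macrophage markers summed to 33.4 to 145 CPM in VAT and 41.7 to 188 CPM in LN, with C1qa at 0 in both tissues. Most of the LN sum was Apoe, which averaged 0.00569 CPM in HFD VAT and 125 CPM in HFD LN, and 6.17 CPM in lean VAT and 108 CPM in lean LN. Cd68 ran the other way, at 60.9 CPM in HFD VAT and 0.600 CPM in HFD LN, and 38.8 CPM in lean VAT and 1.58 CPM in lean LN. The part of these cells in the tissue differences of granule genes was not tested, and in bulk RNA fewer cells of a type and less RNA per cell cannot be told apart. A library can also lack genes that its own group otherwise holds. Taking genes whose median over the remaining libraries of the group reached 10 CPM, the share that had no more than 3 counts was 11.2% in HFD VAT replicate 1, 11.3% in HFD VAT replicate 3 and 13.1% in lean VAT replicate 1, and 0.797% to 5.31% in the other 13 libraries. These 3 VAT libraries are called those of the largest missing share.

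The stretch before the transcription start is shown for the 5 genes that were higher in VAT when both diets were averaged, because they moved together, and for Lamp1, whose window holds a repeated motif. The sequences are RefSeq's, build GRCm38.p6, 250 bases before the start and read 5′ to 3′ on the gene's own strand. Capitals mark matches, on either strand, to 6 short motifs: GGTGTGA (bound by T-box factors such as T-bet and Eomes), TGTGGTT (RUNX factors), TTTCNNTTT (the core of the interferon-stimulated response element, ISRE), TTCNNNGAA (the GAS element of STAT factors), TGANTCA (AP-1) and TCACGTG (the CLEAR element of TFEB, a regulator of lysosomal genes).
Nkg7: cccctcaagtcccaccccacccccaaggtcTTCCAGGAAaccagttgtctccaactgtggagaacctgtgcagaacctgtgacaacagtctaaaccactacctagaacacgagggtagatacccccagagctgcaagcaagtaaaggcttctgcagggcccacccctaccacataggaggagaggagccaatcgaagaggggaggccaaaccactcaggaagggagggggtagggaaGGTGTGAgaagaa
Srgn: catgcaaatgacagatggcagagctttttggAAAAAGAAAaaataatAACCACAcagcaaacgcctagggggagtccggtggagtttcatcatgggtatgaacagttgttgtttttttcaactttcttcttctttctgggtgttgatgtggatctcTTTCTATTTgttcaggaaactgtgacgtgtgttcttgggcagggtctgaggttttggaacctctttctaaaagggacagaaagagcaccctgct
Serpinb9: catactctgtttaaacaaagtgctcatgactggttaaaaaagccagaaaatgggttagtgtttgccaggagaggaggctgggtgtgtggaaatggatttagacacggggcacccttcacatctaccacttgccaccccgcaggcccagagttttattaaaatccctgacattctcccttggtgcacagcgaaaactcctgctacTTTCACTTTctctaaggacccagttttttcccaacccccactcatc
Serpinb6b: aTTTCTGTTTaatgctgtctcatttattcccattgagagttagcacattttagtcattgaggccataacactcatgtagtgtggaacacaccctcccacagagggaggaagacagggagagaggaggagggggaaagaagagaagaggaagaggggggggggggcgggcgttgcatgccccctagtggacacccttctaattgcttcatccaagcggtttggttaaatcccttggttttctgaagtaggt
Serpina3g: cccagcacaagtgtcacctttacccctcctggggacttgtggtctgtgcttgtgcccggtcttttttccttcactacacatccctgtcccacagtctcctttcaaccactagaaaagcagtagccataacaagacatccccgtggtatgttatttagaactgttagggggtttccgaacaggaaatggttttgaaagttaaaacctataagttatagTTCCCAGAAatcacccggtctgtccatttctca
Lamp1: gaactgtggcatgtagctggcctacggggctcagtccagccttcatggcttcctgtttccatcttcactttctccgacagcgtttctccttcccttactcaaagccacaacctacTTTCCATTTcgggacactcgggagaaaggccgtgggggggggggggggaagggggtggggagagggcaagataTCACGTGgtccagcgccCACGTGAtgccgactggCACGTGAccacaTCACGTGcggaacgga

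These windows lie at chr7:43436888-43437137 (plus strand) for Nkg7, chr10:62507758-62508007 (minus strand) for Srgn, chr13:33004291-33004540 (plus strand) for Serpinb9, chr13:32965011-32965260 (plus strand) for Serpinb6b, chr12:104235897-104236146 (plus strand) for Serpina3g and chr8:13158911-13159160 (plus strand) for Lamp1. Windows with 50 further bases after the start were searched for 8 of the 10 genes, 10 windows in all since Srgn and Rab27a have 2 each. The Srgn window not printed, at chr10:62527446-62527695 (minus strand), lies upstream of the printed one and held none of the motifs. The printed Srgn window thus belongs to a start further downstream in the gene. Positions are those of a match's first base, counted back from the start. Nkg7 has a T-box match at -13 and a GAS match at -220. Serpinb9 has an ISRE match at -46, Serpina3g a GAS match at -33, and Serpinb6b an ISRE match at the far end of its window, at -249. The printed Srgn window holds a RUNX match and 2 ISRE matches. The Lamp1 window holds 4 CLEAR matches, at -62, -45, -28 and -16, and 1 ISRE match. Of all 32851 windows in the same RefSeq table, 3.98% held the T-box motif, 5.27% RUNX, 10.6% ISRE, 8.30% GAS, 7.81% AP-1 and 3.77% CLEAR. Among the 10 windows the T-box motif was found in 3, RUNX in 2, ISRE in 4, GAS in 3, CLEAR in 1 and AP-1 in 0, and no match overlapped another. The T-box matches lay in Nkg7, Ctsc and Rab27a. Ctsc also held a GAS match and Rab27a a RUNX match, and neither of these genes passed the test between tissues. A match is a run of letters and not a measured binding site.

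The comparison of VAT with LN asks how OT-I cells in fat differ from those in lymph node under one diet. On HFD 3 of the 10 genes rose in VAT (Nkg7, Srgn and Serpinb6b) and 0 fell, against 2.68% of all genes that rose and 1.88% that fell, 4.56% in all. In lean mice 2 rose (Nkg7 and Srgn) and 0 fell, against 2.12% and 0.919% of all genes, 3.04% in all. With the tissue difference averaged over both diets, which draws on all 16 libraries, 5 rose (Nkg7, Srgn, Serpinb9, Serpinb6b and Serpina3g) and 0 fell, against 5.77% and 4.52%. These 5 were also the genes whose VAT libraries all lay above the LN libraries, a pattern seen upward in 7.21% of all genes on HFD, in 7.24% in lean mice and in 3.39% over all 8 against 8 libraries. None of the 10 had every VAT library below every LN library, which 8.01% of all genes had on HFD and 5.7% in lean mice. The median log2 fold change of the 10 genes was 0.96 on HFD and 1.46 in lean mice, against -0.10 and -0.00 over all genes tested. The averaged comparison shares its libraries with the other 2 and is no separate evidence.

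Nkg7 encodes a granule membrane protein that mouse T cells need for efficient release. Its level was 1468, 1254, 1472 and 1559 CPM in HFD VAT replicates 1 to 4 and 2722, 1358, 1295 and 1579 CPM in lean VAT, against 494, 334, 385 and 358 CPM in HFD LN and 365, 382, 465 and 273 CPM in lean LN. Every VAT library was above every LN library. Lean VAT replicate 1, the library of the largest missing share, was the highest of all 16. The other 3 lean VAT libraries averaged 1411 CPM, beside 1438 CPM in HFD VAT. The log2 fold change between VAT and LN was 1.87 ± 0.23 (SE) on HFD (adjusted p = 0.000226) and 2.23 ± 0.24 in lean mice (adjusted p = 9.1e-05). It passed under all 24 alternative settings in each diet. The tissue effects of the 2 diets differed by -0.35 ± 0.32 on the log2 scale, HFD minus lean (adjusted p = 1.00).

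Srgn encodes serglycin, the proteoglycan core on which granzymes are packed. Its level was 968, 1073, 1274 and 1333 CPM in HFD VAT and 829, 752, 941 and 883 CPM in lean VAT, against 483, 425, 572 and 342 CPM in HFD LN and 267, 396, 385 and 286 CPM in lean LN. The groups formed a ladder from HFD VAT to lean LN, with a gap between the tissues and an overlap between the 2 LN groups. The log2 fold change between VAT and LN was 1.35 ± 0.18 on HFD (adjusted p = 0.000378) and 1.35 ± 0.18 in lean mice (adjusted p = 0.000493). Within groups the coefficient of variation of Srgn was 9.47% to 21.3%, and it too passed under all 24 settings in each diet.

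The 2 cathepsins of the granule showed no such step. Ctsw encodes cathepsin W, a cysteine protease made by CD8 T cells and NK cells. Its level was 2082, 1497, 2142 and 1551 CPM in HFD VAT and 1653, 1442, 1528 and 1414 CPM in lean VAT, against 1038, 1408, 1416 and 1724 CPM in HFD LN and 1555, 1504, 1611 and 1216 CPM in lean LN. All 4 groups overlapped. VAT over LN, its log2 fold change was 0.38 ± 0.16 on HFD (adjusted p = 0.209) and 0.04 ± 0.16 in lean mice (adjusted p = 0.998). The interval in lean mice was -0.27 to 0.35.

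Ctsc encodes cathepsin C, which trims granzyme precursors to their active form. Its level was 85.1, 100.4, 93.0 and 97.6 CPM in HFD VAT and 12.5, 98.6, 160 and 105 CPM in lean VAT, against 93.8, 173, 117 and 140 CPM in HFD LN and 101, 171, 88.9 and 83.3 CPM in lean LN. The groups overlapped apart from lean VAT replicate 1, which held 554 counts where the other lean VAT libraries held 4356 to 7512. Its log2 fold change between VAT and LN was -0.48 ± 0.51 on HFD (adjusted p = 0.751) and -0.24 ± 0.51 in lean mice (adjusted p = 0.979), with intervals of -1.48 to 0.53 and -1.25 to 0.76.

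The 3 genes of release come next in the path of a granule. Lamp1 encodes a lysosomal membrane glycoprotein that appears on the cell surface when granules fuse. Its level was 304, 202, 266 and 183 CPM in HFD VAT and 100 (replicate 1), 250, 223 and 241 CPM in lean VAT, against 131, 169, 190 and 168 CPM in HFD LN and 176, 205, 140 and 120 CPM in lean LN. Without lean VAT replicate 1 the lean VAT libraries lay at 223 to 250 CPM, above every LN library. Its log2 fold change between VAT and LN was 0.54 ± 0.28 on HFD (adjusted p = 0.339) and 0.35 ± 0.28 in lean mice (adjusted p = 0.772). Averaged over diets it was 0.44 ± 0.20 (adjusted p = 0.199), and without lean VAT replicate 1, whose share of missing genes is the largest, it was 0.55 ± 0.15 (adjusted p = 0.0364). Lamp1 also passed with voom weights (adjusted p = 0.0222) and in none of the other 21 alternatives, and without all 3 VAT libraries of the largest missing share it was 0.37 ± 0.14 (adjusted p = 0.140).

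Rab27a encodes the small GTPase that docks granules at the membrane. Its level was 21.2, 32.1, 27.7 and 18.9 CPM in HFD VAT and 7.19, 27.3, 45.1 and 44.7 CPM in lean VAT, against 30.5, 1.77, 9.98 and 24.8 CPM in HFD LN and 11.04, 2.96, 13.6 and 14.4 CPM in lean LN. The spread within groups was wide, with a coefficient of variation of 24.2% to 78.9%, and replicate 2 was the lowest library in both LN groups. On the log2 scale VAT differed from LN by 0.58 ± 0.82 on HFD (adjusted p = 0.836) and 1.56 ± 0.84 in lean mice (adjusted p = 0.478). The intervals of -1.03 to 2.19 and -0.08 to 3.21 include both no difference and a large one.

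Unc13d encodes Munc13-4, which primes docked granules for fusion. Its level was 51.4, 87.9, 74.2 and 135 CPM in HFD VAT and 50.3, 224, 213 and 146 CPM in lean VAT, against 143, 135, 95.4 and 123 CPM in HFD LN and 250, 202, 260 and 142 CPM in lean LN. With Ctsc it was one of the 2 genes with a negative log2 fold change between VAT and LN, -0.51 ± 0.40 on HFD (adjusted p = 0.607) and -0.43 ± 0.40 in lean mice (adjusted p = 0.842). The VAT and LN libraries overlapped under both diets.

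**Figure D2:**
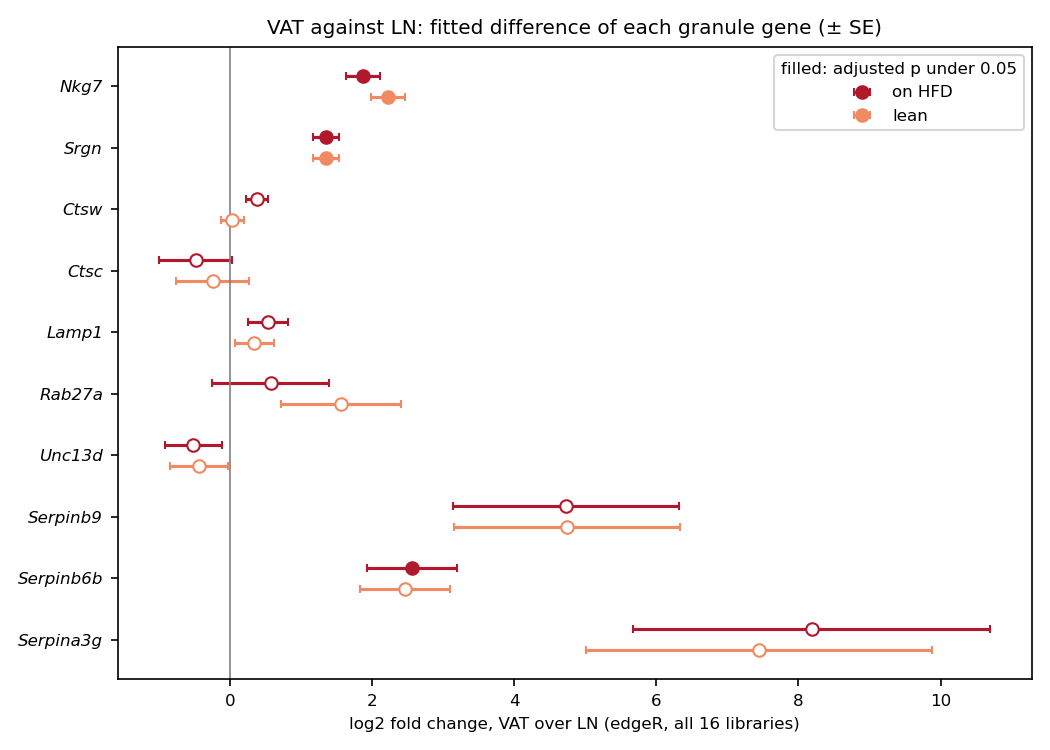
Fitted log2 fold change of VAT over LN (horizontal axis) with its SE for each granule gene, on HFD (dark) and in lean mice (light), with filled points where the adjusted p is under 0.05. Nkg7 and Srgn are filled in both diets and Serpinb6b on HFD only, and the bars of Serpinb9 and Serpina3g are the widest.

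The 3 serpins had the largest fitted differences between the tissues, and Serpinb9 and Serpina3g also had the largest errors. Serpinb9 encodes the mouse inhibitor of granzyme B. Its level was 718, 458, 769 and 528 CPM in HFD VAT and 442, 500, 392 and 632 CPM in lean VAT, against 39.7, 0, 0 and 53.7 CPM in HFD LN and 21.9, 13.8, 16.04 and 22.0 CPM in lean LN. HFD LN was split, with 2330 and 2524 counts in replicates 1 and 4 and none in replicates 2 and 3, where 3 counts would be 0.05889 and 0.06607 CPM. Fitted over LN, its log2 fold change in VAT was 4.73 ± 1.59 on HFD (adjusted p = 0.120) and 4.74 ± 1.59 in lean mice (adjusted p = 0.162). Averaged over diets it was 4.73 ± 1.12, a 26.6-fold difference (adjusted p = 0.0157). Of 24 alternatives on each diet, Serpinb9 passed in 2 on HFD and 3 in lean mice. It passed on each diet with DESeq2 (adjusted p = 0.00980 on HFD and 0.0180 in lean mice) and with voom weights (0.00821 and 0.0320). In a fit of the 2 lean groups alone, which leaves the split HFD LN libraries out, its adjusted p was 0.000461. A fit of the 2 HFD groups alone did not call it. Without the 3 VAT libraries of the largest missing share the averaged difference was 4.57 ± 1.29 (adjusted p = 0.0563).

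Serpinb6b encodes a mouse inhibitor of granzyme A. Its level was 73.8, 91.8, 278 and 154 CPM in HFD VAT and 90.2, 84.1, 109 and 140 CPM in lean VAT, against 13.0, 26.8, 11.4 and 49.9 CPM in HFD LN and 7.14, 40.2, 17.6 and 11.7 CPM in lean LN. The lowest VAT library, at 73.8 CPM, was above the highest LN library, at 49.9 CPM. The log2 fold change was 2.56 ± 0.63 on HFD (adjusted p = 0.0332) and 2.46 ± 0.63 in lean mice (adjusted p = 0.0522). Serpinb6b lies near the threshold in both diets, with an adjusted p of 0.000238 to 0.119 over the 24 alternatives on HFD. It lost the call on HFD without HFD VAT replicate 3 (0.0954) or 4 (0.0608), without HFD LN replicate 1 (0.0973), 2 (0.0851) or 3 (0.0919), without the filter (0.0689), with only the HFD groups in the fit (0.0741) and without the 3 libraries of large missing share (0.119), all adjusted p. In lean mice Serpinb6b passed in 6 of 24 alternatives. These were fits without lean LN replicate 2 (adjusted p = 0.0214), without HFD VAT replicate 3 (0.0485) or without HFD LN replicate 4 (0.0403). The others were DESeq2 (0.00113), voom weights (0.00468) and a filter of 5 CPM in 4 libraries (0.0372). Averaged over diets it was 2.51 ± 0.45 (adjusted p = 0.00229).

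Serpina3g encodes an inhibitor of cysteine cathepsins in mouse T cells, so its target is a granule protease of another class than the granzymes. Its level was 309, 176, 284 and 276 CPM in HFD VAT and 226, 190, 145 and 130 CPM in lean VAT. In HFD LN it was 3.55 CPM in replicate 1 and 0 in the other 3, and in lean LN it was 3.97 CPM in replicate 3 and 0 in the other 3. The 2 LN libraries with any signal had 208 and 205 counts, while the VAT libraries had 5411 to 14148. Between VAT and LN its log2 fold change was 8.19 ± 2.51 on HFD (adjusted p = 0.0890) and 7.45 ± 2.44 in lean mice (adjusted p = 0.151), and 7.82 ± 1.75 averaged over diets (adjusted p = 0.0109). One LN library in each diet decides these values. Serpina3g passed on HFD without HFD LN replicate 1 (adjusted p = 0.0266) or lean LN replicate 3 (adjusted p = 0.0484), and in lean mice without lean LN replicate 3 (adjusted p = 0.0286). With voom weights it passed in both (adjusted p = 0.000773 on HFD and 0.000583 in lean mice).

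Serpins of these families have related copies in the mouse genome that share part of their sequence, which matters for how reads are shared out. Of the stretches of 31 bases in Serpina3g transcripts of GENCODE's M21 release, 28.4% also occur in other genes, led by Serpina3f (16.2%), Serpina3h (15.2%) and Serpina3i (12.4%). Levels of single A3 serpins are therefore uncertain, so their counts were also added up. Summed, Serpina3g, Serpina3f, Serpina3h and Serpina3i had 7965 to 20532 counts in the VAT libraries. In LN the sum was 214 counts in HFD LN replicate 1, 232 counts in lean LN replicate 3 and 0 in the other 6 libraries. Shared stretches were fewer for the other members: 4.94% of Serpinb9, mostly with Serpinb9b, 6.83% of Serpinb6b, 7.30% of Lamp1, all with Grtp1, and none of Nkg7 or Ctsw.

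A list of 31 other serpins of clades B and A3 was in the table in full, and 9 of them passed the filter. Of these 9, 7 rose in VAT on HFD and 0 fell (Serpina3n, Serpina3f, Serpina3i, Serpinb1a, Serpinb9b, Serpina3h and Serpinb1c), against 2.68% and 1.88% of all genes. Serpina3f, Serpina3h and Serpina3i share stretches with Serpina3g, and Serpinb9b does with Serpinb9, so these calls may not be separate. In lean mice 4 rose and 0 fell (Serpina3n, Serpina3f, Serpina3i and Serpinb9b), against 2.12% and 0.919% of all genes. Serpina3f lost its call in lean mice with the replicate number as a block (adjusted p = 0.0580). Serpinb1a, an inhibitor of neutrophil elastase, had 342 ± 40.9 CPM in HFD VAT and 32.0 ± 22.4 CPM in HFD LN (10.7-fold, adjusted p = 0.0190). Serpina3f had 81.1 ± 36.5 CPM in HFD VAT and no count in HFD LN, 1352-fold higher when set against 3 counts in each LN library. That figure is no lower limit, since a library can lack a gene that others of its group hold. Serpina3n, which inhibits granzyme B in mouse, was 44.7-fold higher by the same measure, at 2.68 ± 0.256 CPM in HFD VAT. Serpinb6a, a paralogue of Serpinb6b in the list, had 71.2 ± 20.8 CPM in HFD VAT and 43.6 ± 24.6 CPM in HFD LN and did not pass (adjusted p = 0.564). Leaving out 1 library at a time left 4 to 7 calls on HFD and 2 to 4 in lean mice, and Serpinb1a lost its call on HFD without HFD LN replicate 3 (adjusted p = 0.0658). Without the 3 VAT libraries of the largest missing share 3 were called on HFD (Serpina3n, Serpina3f and Serpina3i) and 1 in lean mice (Serpina3n). The filter keeps a gene that is high in 1 group alone, so the 9 that passed are not a neutral sample of the 31.

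**Figure D3:**
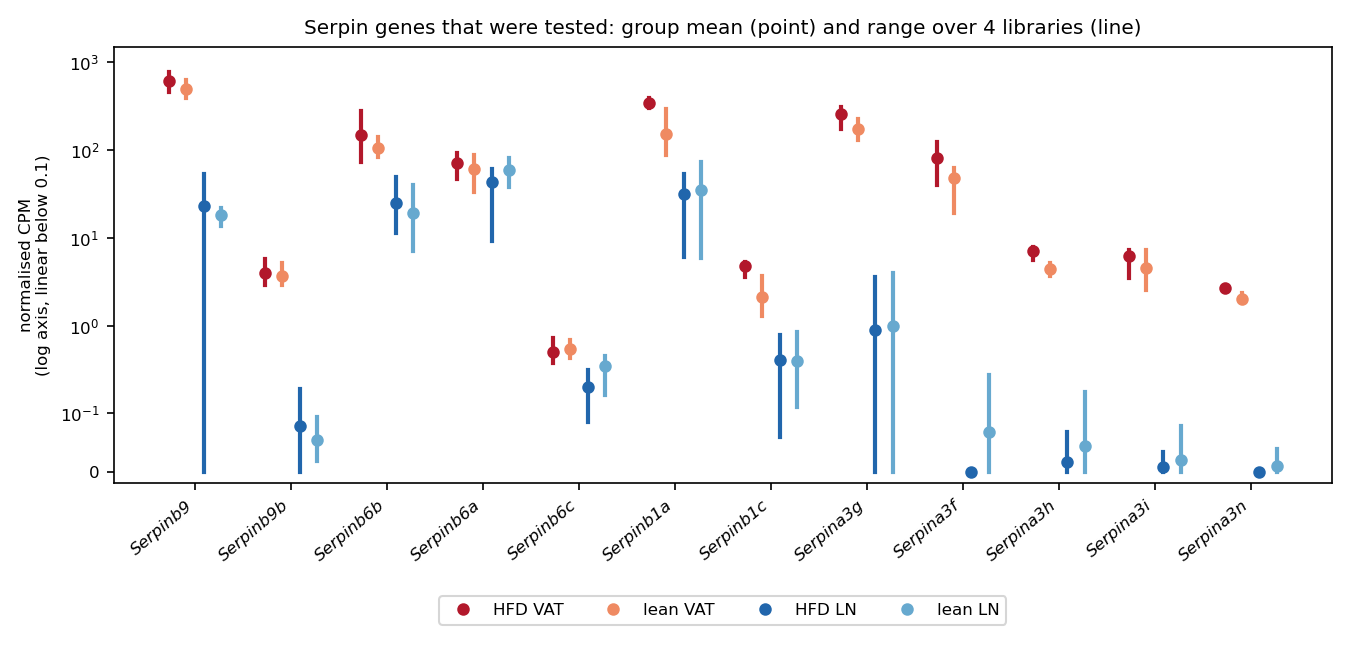
Normalised CPM (log vertical axis, linear below 0.1) of the 12 serpin genes that were tested, 3 of them among the granule genes, in HFD VAT, lean VAT, HFD LN and lean LN. Points are group means and lines run from the lowest to the highest of 4 libraries. Serpinb6a, at 71.2 CPM in HFD VAT and 43.6 CPM in HFD LN, overlaps between the tissues, while the A3 serpins in LN reach down to 0.

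Genes that work beside these were read from further lists. Of all genes 2.68% rose and 1.88% fell in VAT on HFD, and 2.12% and 0.919% in lean mice. Averaged over diets 5.77% rose and 4.52% fell. Of 25 tested genes of granule docking and fusion, 1 rose in VAT on HFD, 1 rose in lean mice and 0 fell in either, with a median log2 fold change of 0.17 and 0.50. The gene was Sytl3 both times, which encodes a Rab27a-binding protein that links granules to kinesin. Sytl3 had 102 ± 35.9 CPM in HFD VAT and 24.6 ± 6.40 CPM in HFD LN (4.16-fold, adjusted p = 0.00303), and 138 ± 32.0 CPM in lean VAT and 34.4 ± 10.3 CPM in lean LN (4.03-fold, adjusted p = 0.00434). Averaged over diets 3 rose, Sytl3 with Lyst, a regulator of lysosome size (2.80-fold, adjusted p = 0.0387), and Wipf1, a partner of the actin regulator WASP (adjusted p = 0.0498). Sytl1, another Rab27a-binding protein, was the 1 that fell (2.35-fold lower, adjusted p = 0.0337). Of these 4, Sytl3 passed under all 23 alternatives. In the 16 fits that each left out 1 library, Lyst passed in 4 (adjusted p = 0.0123 to 0.0876), Wipf1 in 2 (0.0375 to 0.0953) and Sytl1 in 7 (0.00905 to 0.0704). Stx11, a syntaxin required for granule fusion, had 115 ± 70.1 CPM in HFD VAT and 3.26 ± 6.52 CPM in HFD LN and did not pass (adjusted p = 0.305).

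Of 28 tested genes of lysosome and granule proteins, 0 rose and 1 fell in VAT on HFD, and 0 rose and 0 fell in lean mice. Averaged over diets 1 rose, Npc2, a lysosomal cholesterol carrier (1.70-fold, adjusted p = 0.0244), and 3 fell, Lgmn and Ctsh among them. Lgmn, the asparaginyl endopeptidase, averaged 0.0191 ± 0.0370 CPM in VAT and 5.50 ± 5.68 CPM in LN (SD, n = 8 each; edgeR adjusted p = 0.0226), and Ctsh, cathepsin H, averaged 1.33 ± 3.68 CPM in VAT and 20.7 ± 19.5 CPM in LN (SD, n = 8 each; edgeR adjusted p = 0.0430). With 1 of the 16 libraries left out, Lgmn passed in 8 fits (adjusted p = 0.0202 to 0.987), Ctsh in 2 (0.000573 to 0.0818) and Npc2 in 14 (0.0176 to 0.0516). The B cell markers given above were lower in VAT beside Lgmn and Ctsh, and their part in these values was not tested. Of 4 tested cystatins, inhibitors of cathepsins, 1 rose under each diet. It was Csta1, which had 5 to 26 counts in the VAT libraries and 2 to 4 counts in the LN libraries, and which passed with 1 of 16 libraries left out in 12 fits on HFD (adjusted p = 0.0103 to 0.0623) and in 14 in lean mice (0.00995 to 0.0542). Cst7, which encodes cystatin F, an inhibitor of cathepsin C, had 63.7 ± 47.8 CPM in HFD VAT and 72.8 ± 34.6 CPM in HFD LN (adjusted p = 0.949).

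The comparison of HFD with lean mice asks what the diet changes in the cells of each tissue. In VAT 0 of the 10 genes passed, against 0.00638% of all genes that rose and 0.051% that fell, 0.0574% in all (11.1% of those called were higher on HFD, against 65.6% of those voom called), and in LN 0 passed, against 0.0% of all genes in either direction. At an unadjusted p under 0.05 edgeR counted 1 of the 10 genes and 1266 of all 15675 genes in VAT, and 1 of the 10 and 529 of all genes in LN. DESeq2 and limma voom also called 0 of the 10 in either tissue. Set against each other, the diet effects in VAT and in LN differed past the test for 0 of the 10 genes, against 0.0191% of all genes, all of which fell. With edgeR no gene of the docking, lysosome, cystatin or serpin lists passed in a diet comparison, while DESeq2 called 3 lysosome genes in VAT (Cd63, Ctsh and Ctss) and 1 for the difference of diet effects (Cd63).

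**Figure D4:**
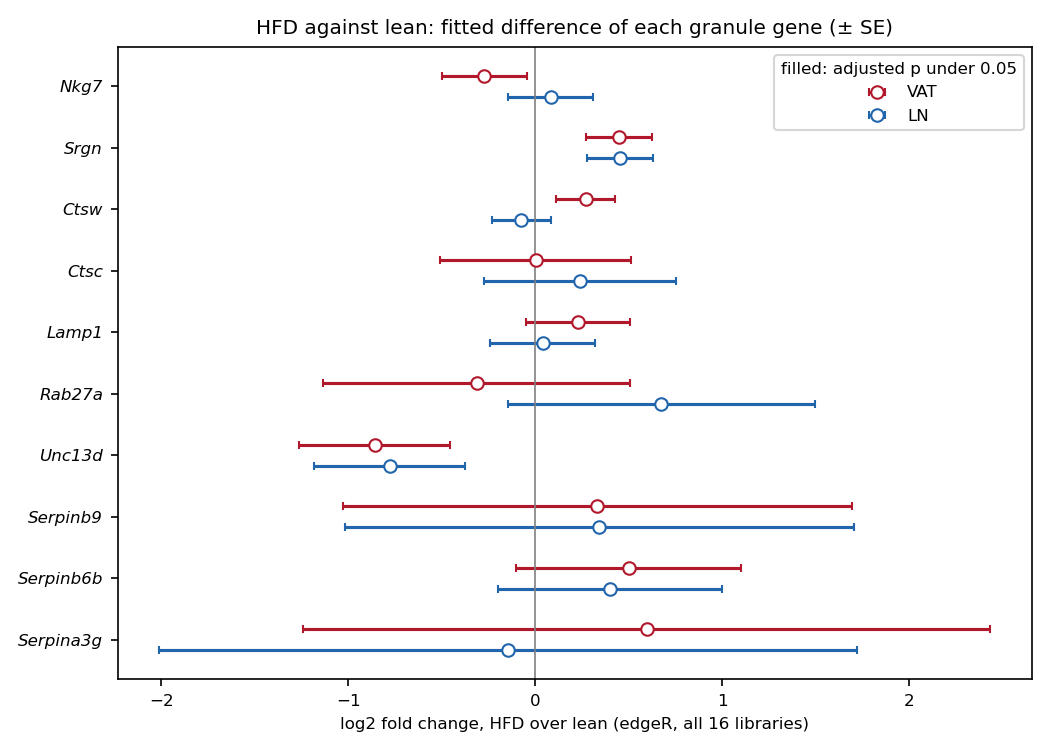
Fitted log2 fold change of HFD over lean (horizontal axis) with its SE for each granule gene, in VAT (red) and in LN (blue). No point is filled, since no adjusted p was under 0.05. Srgn lies at 0.45 in both tissues and Unc13d at -0.86 in VAT and -0.78 in LN.

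Srgn and Unc13d had the largest diet differences relative to their errors. The Srgn values given above put all 4 HFD VAT libraries (968 to 1333 CPM) over all 4 lean VAT libraries (752 to 941 CPM), a pattern seen upward in 1.12% of all genes and downward in 2.1%. In LN the HFD libraries (342 to 572 CPM) overlapped the lean ones (267 to 396 CPM). None of the 10 genes was free of overlap between diets in LN, as 1.07% of all genes were upward and 1.19% downward, or over all 8 HFD and 8 lean libraries, as 0.0128% were upward. The log2 fold change between HFD and lean was 0.45 ± 0.18 in VAT (adjusted p = 0.536) and 0.45 ± 0.18 in LN (adjusted p = 1.00). Averaged over the tissues, a comparison chosen after these values were seen, Srgn was 0.45 ± 0.12, a 1.37-fold difference (adjusted p = 0.398). In that comparison 0 of the 10 genes passed, and 0.0191% of all genes did. DESeq2 called Srgn there (adjusted p = 0.00552), and over 23 alternatives its log2 fold change was 0.39 to 0.52 with an adjusted p of 0.00552 to 0.819.

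Unc13d ran the other way, with 51.4 to 135 CPM in HFD VAT and 50.3 to 224 CPM in lean VAT, and 95.4 to 143 CPM in HFD LN and 142 to 260 CPM in lean LN. The groups overlapped in both tissues, in LN by a single HFD library, replicate 1 at 143 CPM, over lean replicate 4 at 142 CPM. In VAT too the overlap came from a single library, lean replicate 1 at 50.3 CPM, and the other lean VAT libraries lay at 146 to 224 CPM. Without lean VAT replicate 1 the log2 fold change in VAT was -1.15 ± 0.31 (adjusted p = 0.300). Its log2 fold change between HFD and lean was -0.86 ± 0.40 in VAT (adjusted p = 0.625) and -0.78 ± 0.40 in LN (adjusted p = 1.00). Averaged over the tissues it was -0.82 ± 0.29 (adjusted p = 0.543). Over 23 alternatives it stayed between -0.97 and -0.70, and none passed.

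For the other 8 genes the intervals show how much of a diet effect these libraries could miss. In VAT Ctsw had the narrowest, -0.04 to 0.58 on the log2 scale, and Nkg7 had -0.72 to 0.17. Lamp1 had -0.32 to 0.78 and Rab27a -1.92 to 1.29. Serpinb6b had -0.68 to 1.67, and the widest were -2.33 to 3.00 for Serpinb9 and -3.01 to 4.20 for Serpina3g. In LN the interval was -0.36 to 0.53 for Nkg7, -0.39 to 0.24 for Ctsw and -0.77 to 1.24 for Ctsc. There Lamp1 had -0.51 to 0.59, Rab27a -0.94 to 2.28 and Serpinb6b -0.78 to 1.57. The widest in LN were again those of Serpinb9, -2.33 to 3.01, and Serpina3g, -3.80 to 3.51.

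The gene most like each of these over the 16 libraries, by Pearson correlation of log2 CPM among 4524 genes that average at least 50 CPM, is given as a description. The points of such a correlation share their library, its depth and its tissue, and the libraries fall into 2 tissues. For the 5 genes that were higher in VAT the nearest were Id2 for Nkg7 (r = 0.977), Ms4a4b for Srgn (0.952), Tor1aip1 for Serpinb9 (0.914), Trim30a for Serpinb6b (0.940) and Stx11 for Serpina3g (0.988). For the genes without such a step they were Eif2s2 for Ctsw (0.752), Osgep for Ctsc (0.944), Pdia3 for Lamp1 (0.824), Plscr1 for Rab27a (0.832) and Acss1 for Unc13d (0.807).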

How the data were processed

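RNA of sorted T cells was sequenced in 16 libraries, 4 in each of 4 groups of tissue and diet, taken from the labels. The authors deposited 1 table of counts, whole numbers for each gene and library that were not normalised. The submitters' processing notes name kallisto 0.42.4, DESeq2 and, although the genes carry mouse names, the human build GRCh38. How whole counts came from kallisto's estimates is not given in the sources used here. The labels also name more than 1 library kit and sequencer, and a growth text for human synovial fibroblasts. They give no batch. The labels call replicates biological but tie none to an animal, so p-values reflect only how far these libraries vary, which may be technical. All 24 pairs of libraries within a group differed by more than counting noise.

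Counts were tested with edgeR 4.0.16 in R 4.3.3 (filterByExpr, TMM, robust quasi-likelihood, all 4 groups in the fit, Benjamini-Hochberg adjustment over 15675 genes). SE is the log2 fold change over the square root of F. Intervals are ± 1.96 SE, an approximation that is narrower than the F-test implies. Alternatives were RLE scaling, DESeq2 1.42.0, voom with quality weights in limma 3.58.1, dropping the filter, asking for 5 CPM in at least 4 libraries (the strict filter), only the groups compared, replicate blocks, and leaving out each library. Libraries held 40212388 to 65957407 counts, where 3 counts are 0.04371 to 0.08035 CPM. Leaving out 3 VAT libraries of the largest missing share and the diet effect averaged over tissues were added after seeing the data. DESeq2 gave Serpina3g no adjusted p. The pipeline was tested on simulated data.

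The members, the 4 gene lists, the 7 marker lists and the motifs were chosen with earlier results of these data known. The rule for named genes took all members, up to 2 genes per list, direction and comparison with the smallest adjusted p, and the gene most like each member. Wipf1, Ctsh, Cd63, Ctss, Stx11, Cst7, Serpinb1a and Serpinb6a were named after their values were seen. Vamp7 of the docking list was not analysed here. The values of 1 gene of the lysosome list are not reported here. Stretches of 31 bases came from GENCODE M21 transcripts, in which 50636 of 54456 row names are found. Promoter windows are RefSeq's (GRCm38.p6), with 250 bases before the start and 50 after it, and were matched by symbol for 8 of 10 members. The figures were drawn with Matplotlib 3.10.9.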

Additional observations from a re-analysis of the deposited data

Results flagged for a closer look

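Serpina3g had a single library far from the others in both LN groups. In HFD LN replicate 1 it was 3.55 CPM while the other 3 libraries were at 0, and in lean LN replicate 3 it was 3.97 CPM while the other 3 were at 0. Each of the 10 genes was examined in each of the 4 groups, 40 groups of 4 libraries in all. Dixon's test was used at its 95% critical value, and these 2 passed. That value is passed in about 1 of 20 groups of normally distributed values. With 3 libraries at 0 any count in the remaining library passes, so the 2 flags describe the values and test nothing. The same 2 libraries were the only ones of LN with counts on Serpina3h and Serpina3i, and they had 214 and 232 counts over the 4 summed A3 serpins. No cause was tested.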

How the results depend on the processing

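Nkg7 and Srgn kept their tissue call under every alternative tried on either diet. Of 1642 member values under the alternatives, 1519 kept direction and side of the threshold, 9 lost a call, 20 gained one, 94 changed the sign of a difference that was not called, and none turned a called direction round. The members called between tissues were 3 on HFD (5 with voom, 2 to 4 without single libraries), 2 in lean mice (4 with DESeq2, 6 with voom, 2 to 3 without single libraries) and 5 averaged over diets (5 to 6 without single libraries, 4 without the 3 VAT libraries of the largest missing share, a choice made after seeing the data). Members called for diet were 0 to 0 without single libraries in VAT, in LN, for the difference of diet effects and averaged over tissues, and 1 for that average with DESeq2. The cause of these shifts was not tested.

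The number of genes called over the whole table moved more. Between tissues on HFD it was 714 (58.8% of them higher in VAT), 441 without the filter, 2578 with DESeq2 (46.0% higher) and 483 to 886 without single libraries. In lean mice it was 476 (69.7% higher), 1569 with DESeq2 (57.8% higher), 1373 with voom and 325 to 492 without single libraries. Averaged over diets it was 1614, 1020 without the filter, 3395 with DESeq2, 2523 with voom and 1248 to 1597 without single libraries. For HFD against lean in VAT it was 9 (11.1% higher on HFD), 2 without the filter, 769 with DESeq2 (20.5% higher), 32 with voom (65.6% higher), 0 with only these groups, 62 without the 3 libraries and 3 to 40 without single ones. In LN it was 0, 236 with DESeq2, 3 with voom and 0 to 1 without single libraries. For the difference of diet effects it was 3, 1 without the filter, 1 with the strict filter, 635 with DESeq2, 6 with voom, 46 without the 3 libraries and 0 to 24 without single ones. For the diet effect averaged over tissues it was 3, 1 without the filter, 1 with the strict filter, 688 with DESeq2, 5 with voom, 42 without the 3 libraries and 0 to 23 without single ones. RLE scaling moved the median log2 fold change of all genes by 0.102 for the difference of diet effects and by under 0.1 elsewhere.

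The gene lists moved as follows. Docking and fusion had 1 call on HFD (3 with DESeq2, 2 with voom, 1 to 1 without single libraries), 1 in lean mice (4 with DESeq2, 4 with voom, 2 with only these groups, 2 without the 3 libraries, 1 to 2 without single ones) and 4 averaged (1 without the filter, 7 with DESeq2, 2 without the 3 libraries, 1 to 3 without single ones). Lysosome proteins had 1 on HFD (2 with RLE, 0 without the filter, 4 with DESeq2, 2 with voom, 3 without the 3 libraries, 0 to 3 without single ones), 0 in lean mice (4 with DESeq2, 3 with voom, 1 with only these groups, 1 without the 3 libraries, 0 to 1 without single ones) and 4 averaged (1 without the filter, 9 with voom, 2 to 4 without single libraries), and DESeq2 called 3 for diet in VAT and 1 for the difference of diet effects. Cystatins had 1 on HFD (0 without the filter, with the strict filter or with only these groups, 2 with DESeq2, 0 to 1 without single libraries), 1 in lean mice (0 without the filter or with the strict one, 0 to 1 without single libraries) and 1 averaged (0 with the strict filter, 1 to 1 without single libraries). Serpins had 7 on HFD (4 without the filter or with the strict one, 3 without the 3 libraries, 4 to 7 without single ones), 4 in lean mice (1 without the filter, 2 with the strict one, 7 with DESeq2, 7 with voom, 1 without the 3 libraries, 2 to 4 without single ones) and 7 averaged (4 with the strict filter, 7 to 7 without single libraries). All 4 lists had 0 to 0 calls for diet without single libraries.

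The labels do not say whether replicate numbers pair the libraries. The values showed no sign of it, which cannot exclude a pairing. Same-numbered libraries of any 2 groups had deviations from the group means that correlated at -0.0992 to 0.0518, 0 of 4 pairs over 0.1 in each of the group pairs. With the replicate number as a block Serpinb6b kept its call on HFD (adjusted p = 0.0479) and the members called stayed 3, 2 and 5 between tissues and 0 for diet. The block left 1 gene called for diet in VAT, 0 for the difference of diet effects, 0 for the diet average, 6 serpins on HFD, 3 serpins in lean mice, where Serpina3f was lost (adjusted p = 0.0580), 0 lysosome genes on HFD, 1 docking gene and 1 lysosome gene in the tissue average.

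Libraries without a count limit statements on Serpina3g and Serpinb9 in LN, where 3 counts are 0.04371 to 0.06607 CPM. The cause of these zeros was not tested. CPM after TMM shows change relative to the other genes of a library and not change per cell.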
